A study of Mus musculus with 8 samples.

Results

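Axon guidance ligands and receptors were followed in the prefrontal cortex (PFC) of mice that overexpressed *Rnf146*. Members were taken by gene symbol and comprised the class 3 to class 7 semaphorins, plexins, neuropilins, Eph receptors, ephrins, Slits, Robos, netrins, *Dcc* and the *Unc5* receptors. The rule found 64 genes among the 15039 genes of the table, of which 32 encode ligands and 32 encode receptors. The remaining 5 protein-coding genes that the rule names in the GENCODE vM39 annotation, *Efna4*, *Epha1*, *Epha2*, *Ntn5* and *Sema3b*, were not analysed here. RNA sequencing was performed on 4 Rnf146-overexpressing and 4 eGFP-overexpressing mice, all wild-type C57BL/6NCrljOri males that were 6 weeks old at injection. The adeno-associated virus delivered to the PFC on both sides was AAV2/1-hsyn-RNF146-eGFP in the first group and AAV2/1-hsyn-eGFP in the second, and tissue was dissected 4 weeks later. RNF146 is a ubiquitin ligase that marks poly-ADP-ribosylated proteins such as axin for degradation and thereby raises Wnt/β-catenin signaling. The hsyn (synapsin) promoter limits the transgene to neurons, whereas the RNA came from whole tissue, so glia, vessels and uninfected neurons were read along with infected ones. In such tissue RNA, fewer cells of a type and less RNA per cell cannot be told apart.

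Growing axons read attractive and repulsive cues through a small number of receptor systems. Netrins attract through DCC and repel when UNC5 receptors take part, Slits repel through Robos, secreted and transmembrane semaphorins act through plexins with neuropilins as co-receptors for most class 3 members, and ephrins signal with Eph receptors in both directions at cell contacts. In the mature cortex many of these genes remain expressed, where they act on dendritic spines, synapses, myelin and vessels.

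The deposited values are log2 values that were centred so that, for each gene, the sum of the libraries with the same replicate number was equal in all 4 pairs. A gene therefore holds 4 independent differences, Rnf146 minus eGFP, which were tested in limma with a block for each pair. A gene was called at a Benjamini-Hochberg adjusted p of 0.1 or less over all 15039 genes, the threshold of the study. For a single value, 0.125 is the smallest two-sided p that exact sign flips of 4 pairs allow. With this centring the groups of a gene do not overlap exactly when its 4 differences share a sign. *Rnf146* itself read 10.35, 10.50, 10.43 and 10.47 in the eGFP libraries 1 to 4 and 13.17, 13.01, 13.08 and 13.05 in the Rnf146 libraries 1 to 4, a difference of 2.64 ± 0.13 (SD, n = 4 pairs, adjusted p = 3.2e-07), with vector and endogenous transcripts read together. Markers of cortical excitatory neurons had values for 14 of 14 genes and a mean level of 11.60 to 11.66 in the eGFP and 11.51 to 11.57 in the Rnf146 libraries. Of these, *Slc17a7* (-0.30 ± 0.14, adjusted p = 0.0922) and *Neurod2* (-0.30 ± 0.13, adjusted p = 0.0688) were called lower, 6 of the 14 were below 0 in all pairs, and 7 were lower and 1 higher at an unadjusted p under 0.05. Markers of neighbouring regions also differed between the groups. The mean of 10 septal and basal forebrain genes with values, of 14 listed (*Lhx8*, *Gbx1*, *Chat* and *Slc18a3* had none), was higher by 0.50, 0.67, 0.32 and 0.56 in pairs 1 to 4, and 9 of the 10 were called higher. The mean of 14 striatal genes differed by -0.07, 1.09, 0.58 and 0.22, and that of 12 oligodendrocyte genes by -0.12, 0.44, 0.89 and 0.53, with no gene called in either list but 11 of the 14 and 12 of the 12 higher at an unadjusted p under 0.05 in limma. Microglial genes were lower, by 0.20, 0.27, 0.10 and 0.15 over 10 genes, with *C1qb* called. All 3 ependymal genes with values, of 8 listed, lay above 0 in all pairs, by a mean of 0.21, 0.16, 0.27 and 0.28, with *Foxj1* called (0.32 ± 0.10, adjusted p = 0.0493). The astrocyte, oligodendrocyte precursor and endothelial lists had means of -0.04, 0.09 and 0.0066, with no gene called. Of all genes, 0.818% were called higher and 0.432% lower. At an unadjusted p under 0.05 in limma, 6.45% were higher and 5.98% lower. In all 4 pairs, 10.4% lay above 0 and 10.2% below.

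Most axon guidance genes lay within the range of -0.18 to 0.21 that holds the middle 95% of all genes (the plot of all 64 genes by family), with 7 above it and 4 below. Their median absolute difference was 0.0834, beside 0.0492 over all genes. The deposited scale compresses low genes, and neither this comparison nor the range was matched for level. Of the 64 genes, 2 were called, *Ntn1* higher and *Unc5a* lower, which is 3.12% of them beside 1.25% of all genes. In each direction this was 1 gene, beside 0.818% of all genes called higher and 0.432% called lower. At an unadjusted p under 0.05 there were 10 higher and 3 lower genes (20.3%, beside 12.4% of all genes, of which 6.45% were higher and 5.98% lower). The 4 differences had 1 sign in 16 genes, 8 higher and 8 lower (25%, beside 20.6% of all genes, 10.4% higher and 10.2% lower). Over sets of 3 pairs, the genes of 1 sign numbered 31, 19, 24 and 21 of the 64 without pairs 1 to 4, beside 36.2%, 30.2%, 33.8% and 31% of all genes. As a share of the 64 this was above all genes without pair 1 and close to all genes without pair 2, 3 or 4. A fit without the block, which counts the mirrored libraries of a pair as independent, called 10 axon guidance genes higher and 8 lower (28.1%), beside 21.5% of all genes (11% higher and 10.4% lower). For the other fits named with a gene in the text, the share of all genes called was 2.8%, 0.279%, 1.12% and 0.0931% without pairs 1 to 4, 1.14% with the GC content and length correction, 1.38% with the lowest 25% of genes left out, and 1.25% and 1.18% with robust and untrended variances. The mean difference was above 0 for 30 genes and below 0 for 34, and its median was -0.0031, beside 0.00086 over all genes. The 64 differences ran from -0.35 (*Ephb3*) to 0.35 (*Unc5b*), and 48 genes had an SD over the pairs at least as large as their mean difference. The 95% interval of a gene's difference extended 0.135 to either side in the median gene, and from 0.0955 to 0.296 over the 64. Ligands had a median difference of -0.0098 and receptors of -0.0020, with 8 ligands and 5 receptors at an unadjusted p under 0.05.

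**Figure D1:**
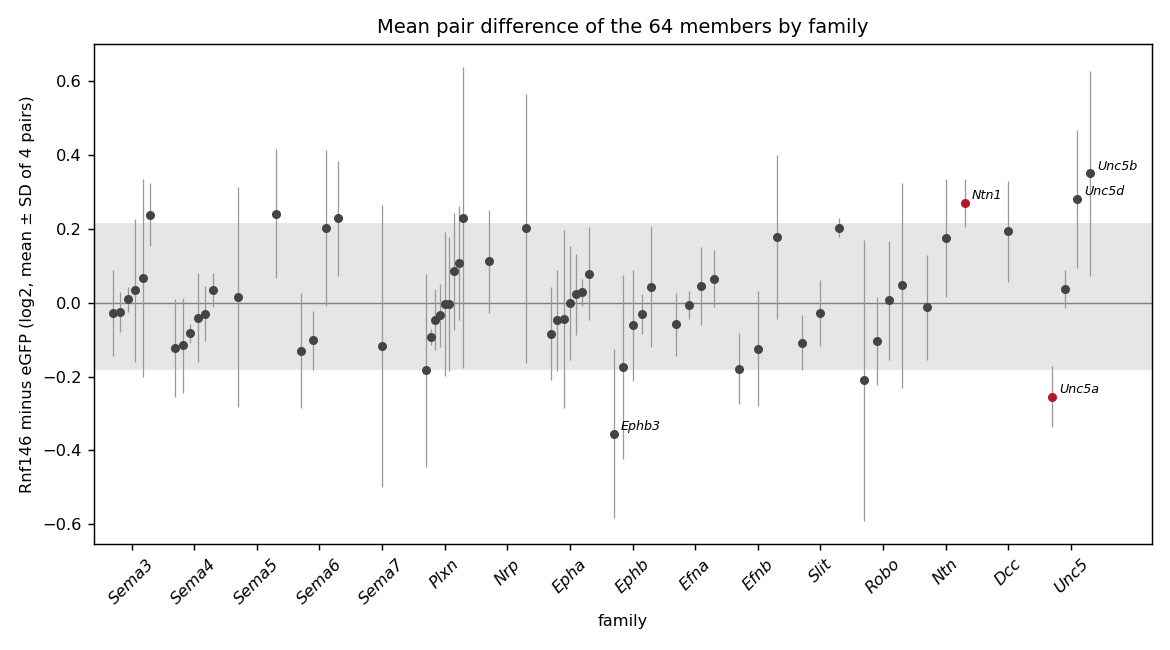
Mean difference between Rnf146 and eGFP libraries (log2 scale of the deposited values) for each of the 64 genes, grouped by family on the horizontal axis, with error bars for the SD of 4 pairs, a grey band for the range of -0.18 to 0.21 that holds the middle 95% of all genes, and red for called genes. *Ntn1* and *Unc5a* are the called genes, and *Unc5b*, *Ephb3* and *Unc5d* lie farther from 0 but with a wider spread.

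The netrin system held both called genes. *Ntn1*, the founding secreted netrin (GRCm39 chr11:68100190-68291662, minus strand), read 9.21, 9.14, 9.17 and 9.14 in the eGFP libraries and 9.39, 9.46, 9.44 and 9.46 in the Rnf146 libraries. All 4 Rnf146 libraries stood above all eGFP libraries. The difference was 0.27 ± 0.06 (95% interval 0.16 to 0.38, adjusted p = 0.0628). *Unc5a*, a receptor for netrin repulsion (GRCm39 chr13:55096518-55153833, plus strand), read 11.77, 11.73, 11.82 and 11.74 in the eGFP libraries and 11.50, 11.54, 11.45 and 11.54 in the Rnf146 libraries. Every Rnf146 library was below every eGFP library, and the difference was -0.25 ± 0.08 (95% interval -0.37 to -0.14, adjusted p = 0.0733). Neither call held in every setting: leaving out pair 2 or pair 4 ended both (adjusted p = 0.283 and 0.294 for *Ntn1*, 0.213 and 0.280 for *Unc5a*), leaving out pair 3 likewise (0.131 and 0.159), and correcting for GC content and length ended that of *Unc5a* (-0.20, adjusted p = 0.142). On a scale of log2 normalized counts, to which low values were stretched back, the *Ntn1* difference was 0.53. *Hk3*, which overlaps *Unc5a* on the opposite strand, differed by -0.08 ± 0.09 (adjusted p = 0.510).

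Because *Unc5a* was the receptor called, the 250 bases before its annotated start are shown, as RefSeq gives them for GRCm38.p6 (chr13:54949161-54949410, plus strand). The stretch is 76.8% G and C and holds 25 CpG. The letters CTTTGAT and CTTTGAA, which TCF/LEF factors of the Wnt pathway are known to bind, were searched on both strands and were not in it. Most promoters lacked both, since 5.12% of the 14368 promoters of genes with values held either. The RefSeq promoters held no entry for *Ntn1*, the other called gene.
Unc5a: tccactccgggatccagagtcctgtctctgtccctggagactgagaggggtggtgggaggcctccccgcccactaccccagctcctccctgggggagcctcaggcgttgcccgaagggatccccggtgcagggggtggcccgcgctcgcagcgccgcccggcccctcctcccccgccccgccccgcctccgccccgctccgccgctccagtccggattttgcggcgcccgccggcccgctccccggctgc

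The other receptors of netrins did not pass the test, and their differences lay above 0. *Unc5b*, a receptor known from vessel sprouting as well as axon repulsion, read 10.11, 9.87, 9.79 and 9.85 in the eGFP libraries and 10.05, 10.29, 10.37 and 10.31 in the Rnf146 libraries. It was higher in pairs 2 to 4 and not in pair 1, so that the groups overlapped, with a difference of 0.35 ± 0.28 (adjusted p = 0.184). Without pair 1 it was 0.49 and called (adjusted p = 0.0171). *Unc5d*, a receptor of cortical layer neurons, read 10.19, 10.33, 10.42 and 10.34 against 10.73, 10.59, 10.50 and 10.59. It was higher in all 4 pairs, by 0.53 in pair 1 and by 0.08 in pair 3, and the mean difference was 0.28 ± 0.19 (adjusted p = 0.153). *Dcc*, the receptor of netrin attraction, read 10.19, 10.05, 10.11 and 10.19 against 10.27, 10.41, 10.35 and 10.27, a difference of 0.19 ± 0.14 with every pair above 0 (adjusted p = 0.233). *Ntn4*, a netrin of basement membranes, differed by 0.18 ± 0.16, also with every pair above 0 (adjusted p = 0.312), and by 0.44 on the scale of log2 normalized counts. *Unc5c* (0.04, 95% interval -0.07 to 0.14) and *Ntn3* (-0.01, -0.15 to 0.13) lay near 0. Of the 8 genes of the system, 6 had an unadjusted p under 0.05 in limma, beside 12.4% of all genes. Of these, 5 were higher and *Unc5a* was lower, beside 6.45% and 5.98% of all genes. The mean of the 8 genes differed by 0.06, 0.22, 0.10 and 0.14 in pairs 1 to 4, and they were not tested as a set.

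**Figure D2:**
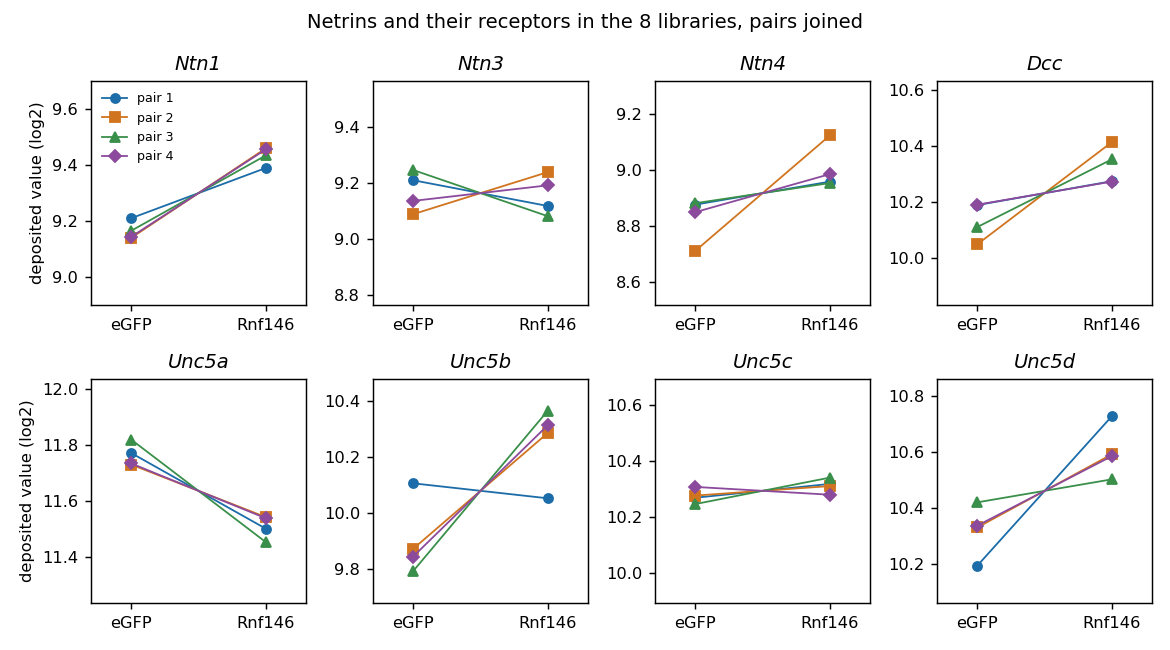
Deposited log2 values of netrins, *Dcc* and *Unc5* receptors in the 4 eGFP and 4 Rnf146 libraries, with each line joining the libraries of a pair and every panel spanning 0.8 on the vertical axis; values of a pair mirror each other because they were centred. *Ntn1* rises in parallel in all pairs and *Unc5a* falls in all pairs, while pair 1 of *Unc5b* runs against pairs 2 to 4.

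Among the 7 Slits and Robo receptors no gene was called by limma, and *Slit2* had an unadjusted p under 0.05. *Slit2*, a secreted repellent (GRCm39 chr5:48140480-48465075, plus strand), read 10.49, 10.47, 10.48 and 10.46 in the eGFP libraries and 10.66, 10.69, 10.67 and 10.69 in the Rnf146 libraries. The groups did not overlap and the pairs lay close together, with a difference of 0.20 ± 0.03 (95% interval 0.10 to 0.30, adjusted p = 0.104). It was called without pair 1 (0.21, adjusted p = 0.0951) and when the lowest 25% of genes were left out (adjusted p = 0.0996). It was not called without pair 2, 3 or 4 (adjusted p = 0.372, 0.178 and 0.384) or with the GC content and length correction (0.131). The other Slits differed by -0.11 ± 0.07 (*Slit3*, below 0 in all 4 pairs, adjusted p = 0.415) and -0.03 (*Slit1*). *Robo3*, a divergent Robo that modulates Slit repulsion at the midline, differed by -0.56, -0.33, 0.33 and -0.29 in pairs 1 to 4 (mean -0.21 ± 0.38, adjusted p = 0.525). Without pair 3 its difference was -0.39 and called (adjusted p = 0.0769). *Robo1*, a main Slit receptor, was higher by 0.33 and 0.23 in pairs 1 and 2 and lower by 0.20 and 0.18 in pairs 3 and 4. *Robo2* (-0.10), another Slit receptor, and the vascular *Robo4* (0.0065) completed the family.

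The 19 semaphorins had a median difference of -0.02, and no gene was called by limma, with 4 higher at an unadjusted p under 0.05 (*Sema3f*, *Sema5a*, *Sema6d* and *Sema6a*). *Sema3f*, a secreted repellent that acts through neuropilin 2 (GRCm39 chr9:107558698-107587674, minus strand), read 9.20, 9.14, 9.18 and 9.24 in the eGFP libraries and 9.42, 9.48, 9.45 and 9.38 in the Rnf146 libraries. The groups did not overlap, and the difference was 0.24 ± 0.09 (95% interval 0.12 to 0.36, adjusted p = 0.104). This lay close to the threshold, and *Sema3f* was called with the correction for GC content and length (0.29, adjusted p = 0.0763) and with robust or untrended variances (adjusted p = 0.0989 and 0.0979). It was called in no set of 3 pairs (adjusted p = 0.114, 0.389, 0.209 and 0.256 without pairs 1 to 4). On the scale of log2 normalized counts its difference was 0.47. The transmembrane *Sema5a* was higher by 0.01, 0.38, 0.20 and 0.38 (mean 0.24 ± 0.17, adjusted p = 0.196) and *Sema6d* by 0.14, 0.39, 0.06 and 0.33 (0.23 ± 0.16, adjusted p = 0.192). *Sema6a*, a ligand of plexin A receptors, differed by -0.09, 0.38, 0.17 and 0.35 (mean 0.20 ± 0.21, adjusted p = 0.331), and it and *Sema5a* were called without pair 1 (0.30 and 0.32, adjusted p = 0.0638 and 0.0442). The remaining class 3 genes lay between -0.03 and 0.07.

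Of the 6 class 4 semaphorins, transmembrane ligands of which several bind B-type plexins, 5 had a mean difference below 0, and the class mean was -0.06, -0.08, -0.06 and -0.04 in pairs 1 to 4. No gene of the class was called or had an unadjusted p under 0.05 in limma, and the 2 genes of 1 sign were *Sema4a* (-0.12 ± 0.13, adjusted p = 0.436) and *Sema4f* (-0.08 ± 0.03, adjusted p = 0.477). In class 6, *Sema6b* (-0.13 ± 0.16, adjusted p = 0.445) and *Sema6c* (-0.10 ± 0.08, adjusted p = 0.455, below 0 in all pairs) stood on the other side of 0 from *Sema6d* and *Sema6a*. *Sema7a*, a membrane-anchored ligand of plexin C1 and integrins, was the least even semaphorin, at -0.59, -0.22, 0.31 and 0.03 (mean -0.12 ± 0.38, adjusted p = 0.756), and its mean turned to 0.04 without pair 1.

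Plexins and neuropilins, the semaphorin receptors, held no gene that limma called and none at an unadjusted p under 0.05, and 3 of 9 plexins had a mean above 0. *Plxnb3*, a plexin of oligodendrocytes, differed by -0.36, 0.30, 0.55 and 0.43 (mean 0.23 ± 0.41, adjusted p = 0.511). Without pair 1 the difference was 0.43 and called (adjusted p = 0.0274). *Plxnd1*, a receptor for class 3 and class 4 semaphorins in vessels and neurons, differed by 0.05, 0.02, -0.50 and -0.30 (mean -0.18 ± 0.26, adjusted p = 0.446). *Plxna4*, a partner of neuropilin 1, was lower in all pairs by a small and even amount (-0.09 ± 0.02, adjusted p = 0.416). *Plxnb2* and *Plxnc1* were at -0.0031 (95% interval -0.16 to 0.15) and -0.0032 (-0.17 to 0.16). *Nrp1* differed by 0.11 ± 0.14.

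*Nrp2*, the co-receptor through which *Sema3f* acts, differed by 0.48, 0.44, -0.31 and 0.20 in pairs 1 to 4 (mean 0.20 ± 0.36, adjusted p = 0.525), and was called only without pair 3 among the sets of 3 pairs (0.37, adjusted p = 0.0890). Its promoter is shown because it was 1 of 2 among the 71 promoters of 55 axon guidance genes (2.82%) to hold a searched Wnt-factor motif, beside 5.12% of the 14368 promoters of genes with values and 7.48% of all 32851 promoters in the RefSeq table. The capitals mark CTTTGAT, 146 bases before the start, in the 250 bases upstream on GRCm38.p6 (chr1:62703067-62703316, plus strand). The other promoter, of *Sema3e*, held CTTTGAA on the reverse strand, and *Sema3e* differed by 0.07 ± 0.27.
Nrp2: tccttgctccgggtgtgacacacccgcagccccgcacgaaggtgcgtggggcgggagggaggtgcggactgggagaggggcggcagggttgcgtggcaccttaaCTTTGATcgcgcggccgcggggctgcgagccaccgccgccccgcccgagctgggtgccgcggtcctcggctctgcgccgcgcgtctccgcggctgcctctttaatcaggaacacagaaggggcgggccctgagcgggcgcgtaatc

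Eph receptors, the tyrosine kinases that bind ephrins, leaned below 0, with 8 of 12 genes there and a median of -0.04, but limma called none, with 1 gene at an unadjusted p under 0.05. *Ephb3*, a receptor for B-type ephrins (GRCm39 chr16:21023495-21042057, plus strand), had the lowest difference of the 64 genes. It read 9.81, 9.94, 9.66 and 9.77 in the eGFP libraries and 9.43, 9.30, 9.57 and 9.47 in the Rnf146 libraries. No library of one group reached the other group, yet the pairs ranged from -0.09 in pair 3 to -0.64 in pair 2. The mean difference was -0.35 ± 0.23 (95% interval -0.54 to -0.17, adjusted p = 0.124). It was called without pair 3 (-0.44, adjusted p = 0.0769), and on the scale of log2 normalized counts it was -0.61. *Ephb6*, a receptor without kinase activity, differed by -0.50, -0.23, 0.07 and -0.04 (mean -0.17 ± 0.25, adjusted p = 0.448). The 7 A-type receptors lay between *Epha10* (-0.08 ± 0.13, adjusted p = 0.596) and *Epha6* (0.08), and none had 1 sign in all pairs.

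The 3 B-type ephrins, transmembrane ligands of these receptors, differed in both directions. *Efnb1* was lower by 0.06, 0.22, 0.15 and 0.29 in pairs 1 to 4, with a mean of -0.18 ± 0.10 (adjusted p = 0.223), and by 0.30 on the scale of log2 normalized counts. *Efnb2* differed by -0.12 ± 0.16 (adjusted p = 0.462) and *Efnb3* by 0.34, 0.33, -0.14 and 0.19 (mean 0.18 ± 0.22, adjusted p = 0.403). The 4 membrane-anchored A-type ephrins lay between -0.06 (*Efna3*) and 0.07 (*Efna5*, ± 0.08, adjusted p = 0.651). Over all families, the 36 genes that were not chosen by size, test or family ran from -0.12 to 0.20 with a median of -0.0020.

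**Figure D3:**
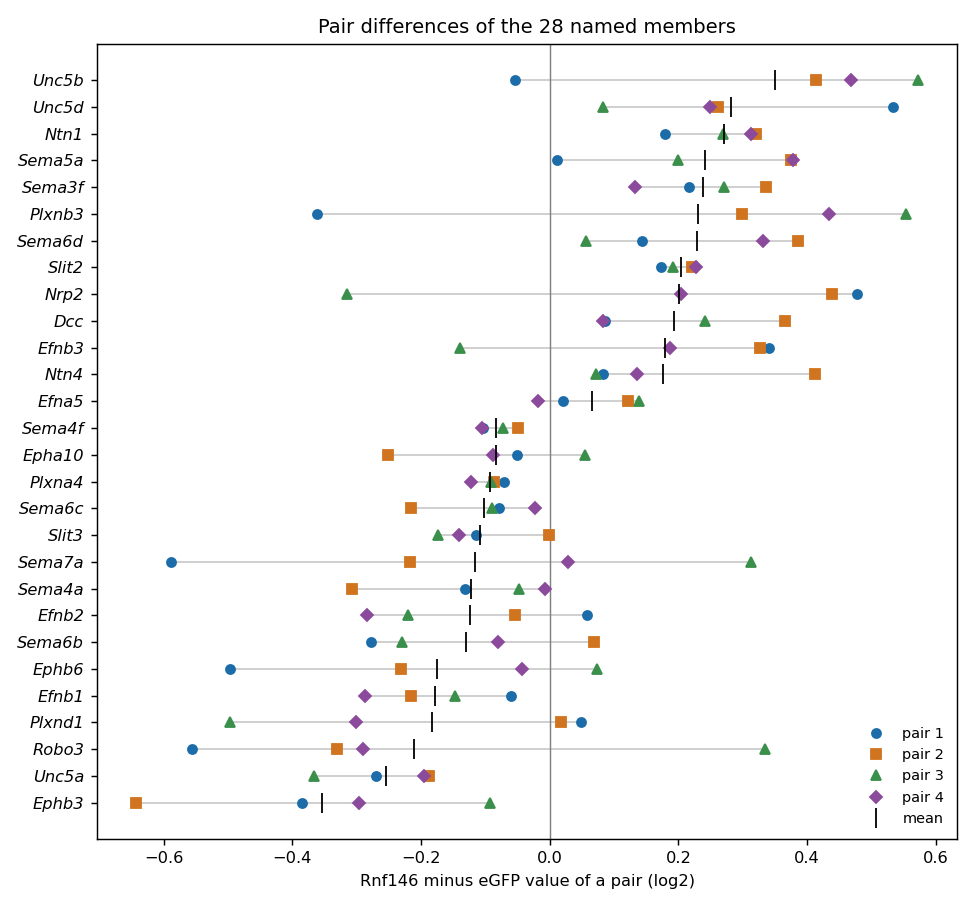
Difference between Rnf146 and eGFP libraries in each of the 4 pairs (horizontal axis, log2 scale of the deposited values) for the 28 axon guidance genes chosen by size, test or family, ordered by their mean. The symbols of *Slit2*, *Ntn1* and *Plxna4* lie close together, and those of *Robo3*, *Sema7a*, *Plxnb3* and *Nrp2* lie on both sides of 0.

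Several genes had their highest or lowest difference in the same pair as a marker list. *Unc5b* and *Plxnb3*, like the oligodendrocyte genes, were lowest in pair 1 and highest in pair 3. So were *Sema7a*, *Robo3*, *Ephb6*, *Ephb2*, *Sema3a*, *Sema3e* and *Sema4c*, of which *Sema7a*, *Robo3*, *Ephb6* and *Ephb2* had a mean difference below 0. The mean level of the 12 oligodendrocyte markers was 11.39 to 11.89 in the eGFP and 11.77 to 12.27 in the Rnf146 libraries. With the mean of these markers as a covariate beside the block, the difference of *Unc5b* was 0.06 in place of 0.35 and that of *Plxnb3* was -0.20 in place of 0.23. The markers themselves differed by a mean of 0.44 ± 0.41 (SD of 4 pairs), so this score also differed in part by group. What belongs to the score and what to the group cannot be told apart in that fit. In that fit, which called 1.78% of all genes, 5 other axon guidance genes were called, *Unc5d* (0.48, adjusted p = 0.0433) and *Nrp2* (0.54, 0.0966) higher and *Ephb6* (-0.44, 0.0454), *Sema7a* (-0.53, 0.0425) and *Robo3* (-0.58, 0.0692) lower, while *Ntn1* was at 0.22 (0.272) and *Unc5a* at -0.22 (0.259). *Dcc* and *Ntn4*, like the striatal and septal genes, had their highest difference in pair 2, as did *Ntn1*, *Sema3f* and *Epha6*. Over the remaining pairs *Ntn4* kept the order of the septal list. *Dcc* kept that of neither list, but its pairs 1 and 4 were nearly equal (0.085 and 0.083), and the striatal order differs from it only there. The striatal markers had mean levels of 10.03 to 10.62 in the eGFP and 10.54 to 11.13 in the Rnf146 libraries, and the septal and basal forebrain markers 9.41 to 9.59 and 9.91 to 10.08. With the mean of striatal and septal markers as a covariate, *Dcc* was at -0.0066, *Ntn4* at -0.05, *Sema5a* at 0.04 and *Unc5b* at 0.11. *Ntn1* was at 0.19, *Slit2* at 0.18 and *Unc5a* at -0.30 there (adjusted p = 0.937, 0.937 and 0.876). The mean of the septal and basal forebrain markers was higher in all 4 pairs, so this score differed in part by group. The fit cannot tell the part of the score from that of the group. No axon guidance gene was called in that fit, which called 2 of all 15039 genes (0.0133%). Of 12 interneuron markers, 4 were called higher, which were the GABA synthesis and transport genes *Gad1* (0.45, adjusted p = 0.0190), *Gad2* (0.64, 0.0050) and *Slc32a1* (0.53, 0.0321) and the transcription factor gene *Dlx1* (0.37, 0.0286), while *Pvalb*, *Sst*, *Vip*, *Lhx6*, *Npy* and *Lamp5* had differences from -0.23 to -0.03, none of them called. *Dlx5* (0.19, above 0 in all 4 pairs, adjusted p = 0.208) and *Reln* (0.0066) were above 0 and not called. The mean of the 12 was higher by 0.04, 0.17, 0.13 and 0.15 in pairs 1 to 4 and their median difference was -0.01, and the mean of excitatory neuron markers was lower by 0.14, 0.15, 0.02 and 0.11 in pairs 1 to 4. The part of interneuron, excitatory neuron, microglial and ependymal levels in these results was not tested.

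**Figure D4:**
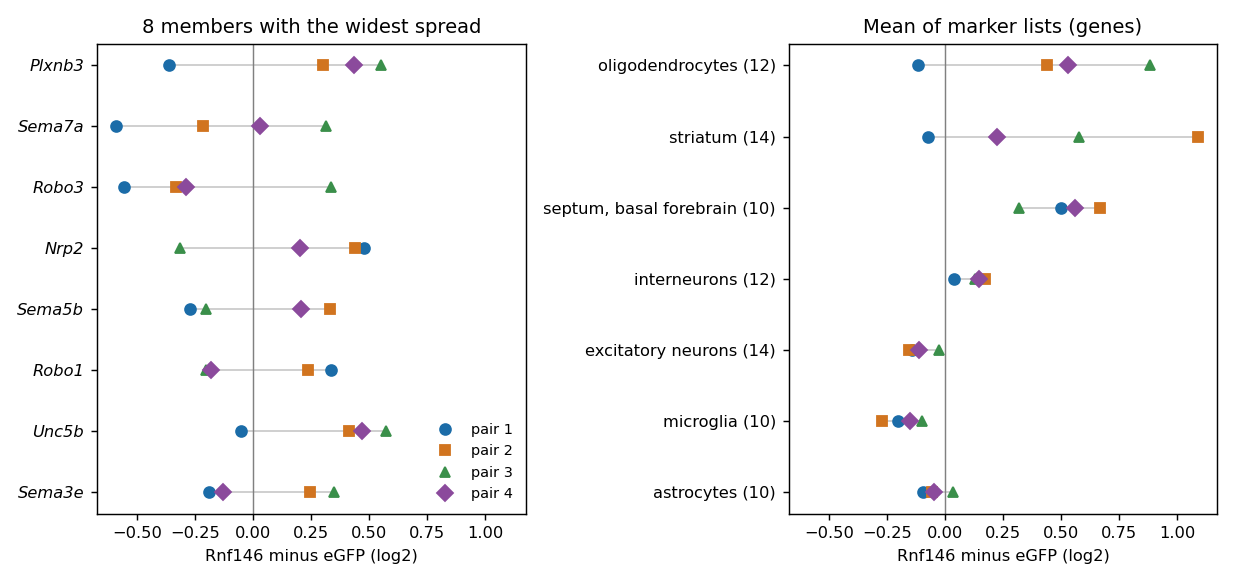
Difference between Rnf146 and eGFP libraries in each of the 4 pairs (horizontal axes, log2 scale of the deposited values) for the 8 axon guidance genes with the widest spread over pairs on the left, and for the mean of marker lists on the right, with the number of genes in parentheses. Pair 1 lies lowest for *Plxnb3*, *Unc5b*, *Sema7a*, *Robo3*, *Sema5b* and *Sema3e* on the left. On the right it lies lowest for the oligodendrocyte, striatal, interneuron and astrocyte markers, and the septal and basal forebrain markers lie above 0 in all pairs.

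Other genes of axon guidance were read from lists of co-receptors and partners and of intracellular effectors. Of 30 co-receptors and partners, 29 had values, and 1 was called higher and 2 lower (10.3%, beside 1.25% of all genes), with a median difference of 0.03. *Met*, the receptor of hepatocyte growth factor, was higher by 0.31, 0.26, 0.32 and 0.38 (mean 0.32 ± 0.05, adjusted p = 0.0237). *Lingo1*, a co-receptor of the Nogo receptor complex that restrains axon growth, was lower by 0.44, 0.36, 0.22 and 0.28 (mean -0.32 ± 0.09, adjusted p = 0.0379). *Islr2*, a membrane protein that takes part in axon extension, was lower by 0.51, 0.16, 0.30 and 0.27 (mean -0.31 ± 0.14, adjusted p = 0.0758). *Rtn4r*, the Nogo receptor itself, differed by -0.29 ± 0.18 (adjusted p = 0.134). Of 56 effectors, 1 was called, *Chn2*, a Rac GTPase-activating protein (0.34 ± 0.08, adjusted p = 0.0259), which is 1.79% of them, and the median was 0.00054. In this list 17 genes had 1 sign in all pairs, 10 higher and 7 lower (30.4%, beside 20.6% of all genes), and 12 had an unadjusted p under 0.05 (21.4%, beside 12.4%). *Src*, a kinase downstream of several guidance receptors, differed by -0.19 ± 0.10 (adjusted p = 0.188).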

How the data were processed

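RNA of the PFC was read from 8 mice, 4 in each group of the sample labels. The authors prepared TruSeq stranded mRNA libraries, removed adapters using Cutadapt and estimated transcript abundance using Salmon 1.9.0 and GENCODE vM30 (GRCm39), and DESeq2 is also named in the submitters' processing notes. Although its name speaks of normalized counts, the deposited table holds values on a log2 scale (7.86 to 18.8), which the authors had centred within same-numbered pairs. The step that made them is not given in the sources used here. Without counts, depth and counting precision are unknown.

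All 15039 genes entered a limma fit (version 3.58.1, R 4.3.3, lmFit and eBayes with trend), blocked on the replicate number, with 3 residual degrees of freedom before moderation, and Benjamini-Hochberg adjustment over all genes. The pairing comes from the replicate numbers of the labels and from the centring, which leaves pair sums equal for every gene, so a correlation of deviations cannot test it. The labels do not say what the mice of a pair shared. The procedure was run on 10 simulated data sets in which genes varied independently and 200 of 15039 were shifted by 0.5. On average 178.8 of these were recovered and 18 other genes were called. Smaller shifts, such as those of the axon guidance genes, were not simulated. Named genes were those called, the 8 largest differences in each direction, the largest of each family, and those called without the block with 4 differences of 1 sign. *Sema6a*, *Robo1*, *Epha6* and the other genes given by value alone were added after their values were seen, as were the named co-receptors and effectors. Members and lists were chosen with earlier results of these data known. Alternatives were another variance model, quantile normalization, leaving out the lowest 25% of genes, leaving out each pair, marker scores, GC content and length, and back-transformation to log2 normalized counts through a variance-stabilizing curve. Promoters were taken from RefSeq (GRCm38.p6) for 55 of 64 genes.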

Additional observations from a re-analysis of the deposited data

How the results depend on the processing

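Axon guidance genes called higher and lower numbered 1 and 1. Without the replicate block they numbered 10 and 8 (28.1%, beside 21.5% of all genes), since that fit counts the mirrored libraries of a pair as independent. The block is therefore kept as the pairing that the centring imposes. The counts were 2 and 0 with GC content and length, 3 and 1 without the lowest 25% of genes, 2 and 1 with robust or with untrended variances, 2 and 3 with the oligodendrocyte score (chosen after seeing the data), 0 and 0 with the striatal and septal score, and 1 and 1 after quantile normalization or back-transformation. Leaving out 1 pair gave 0 to 6 higher and 0 to 2 lower genes, with none in either direction without pair 2 or pair 4, 6 higher without pair 1 and 2 lower without pair 3. The genes of 1 sign numbered 16, and 19 to 31 over sets of 3 pairs, where 3 differences share a sign more often by construction. Without pair 1, the 31 of 64 genes were a larger share than the 36.2% of all genes. Differences turned in sign with the striatal and septal score for *Dcc* (-0.0066), *Efna5* (-0.012), *Epha10* (0.056), *Ntn4* (-0.054), *Plxnb3* (-0.10), *Sema4a* (0.025) and *Sema6c* (0.0051), and with the oligodendrocyte score for *Efnb2* (0.016), *Plxnb3* (-0.20) and *Plxnd1* (0.063). The difference of *Sema7a* was 0.041 without replicate 1 and ran from -0.26 over the sets of 3 pairs. For these the cause was not tested. Both scores were computed from the same 8 libraries and leave 2 residual degrees of freedom. Both also differed in part by group, so neither fit can tell score from group. None of the 28 named genes turned in sign with the remaining fits of all pairs. The deposited scale compresses low genes, and depth is unknown, so differences of low genes are understated by an amount that counts alone could set.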
